A study of Mus musculus with 9 samples.

Results

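Platelet transcripts are described here in the aorta of mice with a floxed angiotensin II type 1a receptor gene, with or without a Cre transgene. They are 10 genes known from platelets and megakaryocytes: Ppbp, Pf4, Itga2b, Gp9, Clec1b, Tubb1, Nrgn, Gp1bb, Gp6 and Treml1. The genes were named as a list and were found by their mouse symbols among the 37668 genes of the deposited table. All 10 were found. The list was drawn up with the values of these groups known, so the levels and ratios of its genes are a description, and no test is attached to them.

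The series has 9 libraries of RNA from frozen aorta, 3 in each of 3 groups, from male mice aged 90 days on a mixed 129T2SvEmsJ and C57Blk/6J background. The Sm22Cre group carried the AT1ar floxed allele of the receptor gene Agtr1a and a Cre transgene named for SM22, a smooth muscle gene also called Tagln. The Cdh5Cre group carried the same floxed allele and a Cre transgene named for Cdh5, the endothelial cadherin gene. The floxed group carried the floxed allele and no Cre, so all 3 groups share that allele. The title of the series names Marfan syndrome, but the labels used here list no Marfan allele. The sources used here do not name the Cre lines. As background, the Cdh5 promoter is active in endothelium, including the embryonic endothelium that gives rise to blood cells, and the Tagln promoter is active in smooth muscle and in the embryonic heart. Agtr1a itself was listed at 1.21 FPKM in Sm22Cre, 1.32 FPKM in Cdh5Cre and 1.75 FPKM in floxed.

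FPKM gives sequenced fragments relative to transcript length and to all those mapped, so levels can be compared between genes as values per length. The authors combined the 3 libraries of each group into 1 value before deposit. The spread between libraries is therefore unknown, the depth of the libraries is unknown, and no SD, interval or p-value can be given. Every difference below lacks a replicate check. The values of all genes summed to 500015 FPKM in Sm22Cre, 607860 FPKM in Cdh5Cre and 495724 FPKM in floxed. The smooth muscle myosin gene Myh11 stood at 1267 FPKM in Sm22Cre, 1142 FPKM in Cdh5Cre and 1341 FPKM in floxed, which fits the labelled tissue. Acta2, another defining gene of smooth muscle, is listed at 0 in all 3 groups with a status that marks too much data, so its 0 can be a failed estimate.

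Platelets are cell fragments without a nucleus that megakaryocytes release into the blood. They carry RNA inherited from the megakaryocyte, and they stick to an injured vessel wall through surface receptors for von Willebrand factor and collagen. Activated platelets bind fibrinogen through an integrin and release stored chemokines from their granules. A sample of aorta can hold blood in the lumen and in small vessels of the outer wall, and in such a bulk sample fewer cells of a type and less RNA per cell cannot be told apart.

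The genes lie on 8 chromosomes, and among them only Ppbp and Pf4 are neighbours. In the files' build, mm9, Ppbp (ENSMUSG00000029372) lies at chr5:91197544-91199086 and Pf4 (ENSMUSG00000029373) at chr5:91201461-91202407, with 2374 bases between the listed loci. The promoter sequences of 4 of the genes are shown because they span the range of ratios described below. Ppbp had the highest ratio in Cdh5Cre against floxed, Pf4 is its neighbour with one of the lowest, Itga2b carried an ETS word at more places than any other of the genes, and Gp1bb was the only one with both GATA and ETS words. They are the 250 bases before the transcript start, taken from RefSeq on GRCm38.p6, whose coordinates differ from those of mm9. All 10 genes had an entry. Each is written in the direction of transcription, with GATA and ETS words in capitals:
Ppbp (chr5:90768268-90768517, plus strand): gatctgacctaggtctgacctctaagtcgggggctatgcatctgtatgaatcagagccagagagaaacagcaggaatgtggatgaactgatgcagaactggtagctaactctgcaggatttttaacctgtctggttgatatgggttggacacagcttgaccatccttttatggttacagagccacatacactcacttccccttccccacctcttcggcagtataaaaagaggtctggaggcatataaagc
Pf4 (chr5:90772185-90772434, plus strand): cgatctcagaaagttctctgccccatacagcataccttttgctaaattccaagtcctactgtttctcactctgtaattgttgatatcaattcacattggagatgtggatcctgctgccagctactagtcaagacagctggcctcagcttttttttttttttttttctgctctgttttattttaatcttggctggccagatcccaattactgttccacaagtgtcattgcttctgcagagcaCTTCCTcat
Itga2b (chr11:102469884-102470133, minus strand): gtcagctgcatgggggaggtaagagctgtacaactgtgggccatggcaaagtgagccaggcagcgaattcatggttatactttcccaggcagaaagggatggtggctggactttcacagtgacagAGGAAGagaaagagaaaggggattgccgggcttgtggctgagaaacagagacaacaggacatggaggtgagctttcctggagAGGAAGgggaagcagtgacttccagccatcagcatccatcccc
Gp1bb (chr16:18622404-18622653, minus strand): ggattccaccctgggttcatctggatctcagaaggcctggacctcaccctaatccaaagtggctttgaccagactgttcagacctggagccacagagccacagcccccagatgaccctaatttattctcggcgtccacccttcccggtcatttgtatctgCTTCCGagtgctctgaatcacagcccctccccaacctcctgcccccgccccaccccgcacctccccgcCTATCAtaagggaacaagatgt

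GATA and ETS factors are known to drive megakaryocyte genes, and RUNX factors act with them. The GATA words searched on both strands were AGATAA, its variant AGATAG, the further word TGATAA and its variant TGATAG. They were in the promoters of 3 of the 10 genes, which were Clec1b, Gp1bb and Gp6, against 26.5% of all 32851 promoters of this length. The ETS words were AGGAAG and its variant CGGAAG, again on both strands. They were in 5 of the 10, against 39.2% of all promoters. The 5 were Pf4, Itga2b, Gp9, Tubb1 and Gp1bb. The RUNX words were TGTGGT and its variant TGCGGT on both strands, found in 1 of the 10, Gp9, against 18.6%. GATA words overlapped no ETS word in the 4 promoters shown. Ppbp, Nrgn and Treml1 held none of these words in this window. The shares of the 10 genes lie near those of all promoters, and a matched word is only a run of letters.

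All 10 genes stood in the same order, highest in Cdh5Cre, between the others in Sm22Cre and lowest in floxed. Their summed level was 117 FPKM in Sm22Cre, 384 FPKM in Cdh5Cre and 62.0 FPKM in floxed. The sum was thus 6.18-fold higher in Cdh5Cre than in floxed, 1.89-fold higher in Sm22Cre than in floxed, and 3.28-fold lower in Sm22Cre than in Cdh5Cre. As a share of all FPKM it was 0.0234% in Sm22Cre, 0.0631% in Cdh5Cre and 0.0125% in floxed. At or above 1 FPKM were 8 of the genes in Sm22Cre, all 10 in Cdh5Cre and 8 in floxed. Gp6 and Treml1 passed a filter of 1 FPKM in any group through Cdh5Cre alone.

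**Figure D1:**
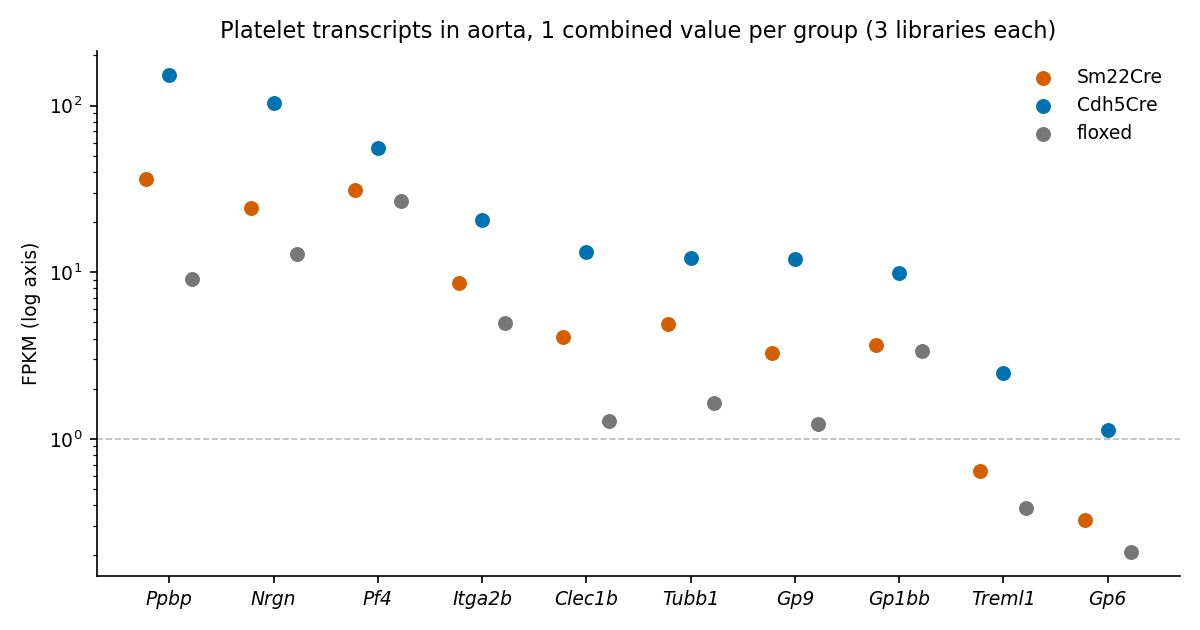
FPKM (log axis) of the 10 platelet transcripts, 1 point for each group's combined value, in Sm22Cre, Cdh5Cre and floxed from left to right within each gene; the dashed line marks 1 FPKM. The Cdh5Cre point is the highest of each gene and the floxed point the lowest, with Ppbp at 153 FPKM in Cdh5Cre and 9.12 FPKM in floxed.

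The chemokine genes Ppbp and Pf4 encode the main chemokines stored in platelet alpha granules. Ppbp stood at 36.1 FPKM in Sm22Cre, 153 FPKM in Cdh5Cre and 9.12 FPKM in floxed. It was 16.8-fold higher in Cdh5Cre than in floxed, the highest log2 ratio of the 14225 genes analysed, and 3.96-fold higher in Sm22Cre than in floxed. Pf4 stood at 31.0 FPKM in Sm22Cre, 55.5 FPKM in Cdh5Cre and 26.9 FPKM in floxed. Its ratios were the lowest or next to lowest of the 10 genes on the plain scale, 2.06-fold in Cdh5Cre against floxed and 1.15-fold in Sm22Cre against floxed. The pair thus changed order. There were 1.17 FPKM of Ppbp for each FPKM of Pf4 in Sm22Cre, 2.76 in Cdh5Cre and 0.339 in floxed.

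Pf4 is also known from macrophages of mouse tissue. The 10 macrophage genes of a fixed list summed to 231 FPKM in Sm22Cre, 245 FPKM in Cdh5Cre and 217 FPKM in floxed, and none was at 0 in any group. C1qa, a complement gene and the highest of them, stood at 60.6 FPKM in Sm22Cre, 74.1 FPKM in Cdh5Cre and 57.6 FPKM in floxed. The 10 did not move together in Cdh5Cre against floxed. There 5 had log2 ratios above 0 and 5 below 0, down to -0.75 for Mrc1, with a median of 0.08. With the length and GC trend described below removed, the median was -0.24. The ratios then ran from -0.48 for Adgre1 to 0.09 for Lyve1, and Lyve1 alone was above 0. The macrophage sum was 1.13-fold higher in Cdh5Cre and 1.06-fold higher in Sm22Cre than in floxed, against 2.06-fold and 1.15-fold for Pf4. The part of macrophages in the level of Pf4 was not tested.

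Gp1bb and Gp9 encode subunits of the platelet receptor for von Willebrand factor, whose other parts come from Gp1ba, the ligand-binding chain, and Gp5. Gp9 (mm9 chr6:87728130-87729756) stood at 3.27 FPKM in Sm22Cre, 11.9 FPKM in Cdh5Cre and 1.23 FPKM in floxed, which makes it 9.68-fold higher in Cdh5Cre and 2.65-fold higher in Sm22Cre than in floxed. Gp1bb stood at 3.66 FPKM in Sm22Cre, 9.95 FPKM in Cdh5Cre and 3.37 FPKM in floxed, which makes it 2.95-fold higher in Cdh5Cre and 1.09-fold higher in Sm22Cre than in floxed. The partner genes, which were not among the 10, were lower in level. Gp5 stood at 0.46 FPKM in Sm22Cre, 2.18 FPKM in Cdh5Cre and 0.24 FPKM in floxed. Gp1ba stood at 0.72 FPKM in Sm22Cre, 1.38 FPKM in Cdh5Cre and 0.75 FPKM in floxed, with a log2 ratio of 0.45 in Cdh5Cre against floxed and of -0.02 in Sm22Cre against floxed. On the plain scale Gp9 (9.68-fold) and Gp5 (8.95-fold) had larger ratios in Cdh5Cre against floxed than Gp1bb (2.95-fold) and Gp1ba (1.85-fold). With 1 FPKM added to both values, Gp5 and Gp1bb had like log2 ratios, of 1.35 and 1.32.

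Gp1bb shares its listed locus (mm9 chr16:18620412-18630004) with Sept5, a septin gene directly upstream of it. Sept5 stood at 29.9 FPKM in Sm22Cre, 42.2 FPKM in Cdh5Cre and 31.1 FPKM in floxed, far above Gp1bb in each group. Fragments of such neighbours can be divided wrongly between them, and the level of Gp1bb is uncertain for that reason. Clec1b, Itga2b and Gp6 also share their listed loci with other genes. The partners of Clec1b were the related lectin genes Clec1a and Clec9a, whose log2 ratios in Cdh5Cre against floxed were 0.10 and 0.10. The partners of Itga2b and Gp6 had no value above 0.0765 FPKM.

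Itga2b encodes the alpha chain of the platelet fibrinogen receptor, and Itgb3 the beta chain, which smooth muscle and other cells of the vessel wall also use with a different alpha chain. Itga2b stood at 8.58 FPKM in Sm22Cre, 20.5 FPKM in Cdh5Cre and 4.95 FPKM in floxed. It was 4.14-fold higher in Cdh5Cre and 1.73-fold higher in Sm22Cre than in floxed, but its status was FAIL in both pairs that include Cdh5Cre, the only members' values so marked. Itgb3 stood at 34.9 FPKM in Sm22Cre, 28.6 FPKM in Cdh5Cre and 33.6 FPKM in floxed. The alpha chain gene was therefore highest, and the beta chain gene lowest, in Cdh5Cre. The log2 ratio of Itgb3 in Cdh5Cre against floxed was small, at -0.22. With the length and GC trend described below removed it was -0.09. Per FPKM of Itgb3 there was 0.246 of Itga2b in Sm22Cre, 0.716 in Cdh5Cre and 0.148 in floxed.

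Clec1b encodes CLEC-2, a receptor for podoplanin, and Gp6 the signalling receptor for collagen, and both act through tyrosine kinase signalling. Clec1b stood at 4.10 FPKM in Sm22Cre, 13.2 FPKM in Cdh5Cre and 1.28 FPKM in floxed, and was 10.3-fold higher in Cdh5Cre and 3.21-fold higher in Sm22Cre than in floxed. Gp6 was the lowest of the 10 genes in every group, at 0.325 FPKM in Sm22Cre, 1.14 FPKM in Cdh5Cre and 0.210 FPKM in floxed. Its plain ratio in Cdh5Cre against floxed was 5.41-fold, while its log2 ratio with 1 FPKM added to both values was 0.82. Treml1, which encodes a receptor kept in alpha granules until activation, stood at 0.643 FPKM in Sm22Cre, 2.50 FPKM in Cdh5Cre and 0.385 FPKM in floxed. It was 6.48-fold higher in Cdh5Cre and 1.67-fold higher in Sm22Cre than in floxed. The partners of these receptors in signalling varied less. Fcer1g, whose product pairs with the collagen receptor, had a log2 ratio of 0.45 in Cdh5Cre against floxed, the kinase gene Syk of 0.16 and the phospholipase gene Plcg2 of 0.30. All of these are expressed in other blood cells as well.

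Tubb1 encodes the tubulin of the ring of microtubules that keeps platelets disc-shaped. It stood at 4.86 FPKM in Sm22Cre, 12.2 FPKM in Cdh5Cre and 1.63 FPKM in floxed, and was 7.46-fold higher in Cdh5Cre and 2.98-fold higher in Sm22Cre than in floxed. Nrgn encodes neurogranin, a calmodulin-binding protein best known from neurons and also present in platelets. It was the member with the next highest level after Ppbp in Cdh5Cre, at 24.4 FPKM in Sm22Cre, 103 FPKM in Cdh5Cre and 12.9 FPKM in floxed. It was 7.98-fold higher in Cdh5Cre and 1.89-fold higher in Sm22Cre than in floxed. The 10 neuronal and Schwann cell genes of a fixed list summed to 14.5 FPKM in Sm22Cre, 27.0 FPKM in Cdh5Cre and 14.5 FPKM in floxed, none of them at 0, and their part in the level of Nrgn was not tested. Npy encodes a peptide of sympathetic nerves. On the scale explained below it was the only one of the 5 analysed to reach 2-fold in Cdh5Cre against floxed (log2 ratio 1.33), against 1.19% of all genes. It stood at 3.15 FPKM in Sm22Cre, 8.37 FPKM in Cdh5Cre and 2.74 FPKM in floxed, and with the length and GC trend described below removed its log2 ratio was 0.76. The synaptic genes Snap25 and Syt1 had no value above 0.0602 FPKM in any group, and Camk2a, a kinase gene of the forebrain, stood at 0.39 FPKM in Sm22Cre, 0.73 FPKM in Cdh5Cre and 0.76 FPKM in floxed.

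On the scale used to count genes, log2(FPKM + 1), a gene was called higher or lower when its ratio reached 2-fold. Low genes need a larger plain ratio to reach it. In Cdh5Cre against floxed, 9 of the 10 genes reached 2-fold upward and Gp6 did not, and the median log2 ratio was 2.09. Of all 14225 genes analysed 1.19% were that much higher, and the median log2 ratio of all of them was 0.02. In Sm22Cre against floxed, Ppbp (log2 ratio 1.87), Clec1b (1.16) and Tubb1 (1.15) were higher by 2-fold or more, which is 3 of 10, against 0.302% of all genes. The median of the 10 was 0.78. The lowest ratios there were those of Gp1bb (0.09), Gp6 (0.13) and Pf4 (0.20), all above 0. These shares are printed side by side without a reading, since the genes were chosen from these values, and both comparisons share the floxed group.

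Set directly against each other without floxed, Sm22Cre was below Cdh5Cre for all 10 genes. In this comparison 8 of 10 were lower by 2-fold or more, against 1.23% of all genes, with a median log2 ratio of -1.20. Ppbp was 4.25-fold lower in Sm22Cre than in Cdh5Cre, Nrgn 4.23-fold and Treml1 3.88-fold. Pf4 was 1.79-fold lower and Itga2b 2.39-fold lower. On the plain scale the 10 genes lay within a range of 1.79-fold to 4.25-fold, narrower than the 2.06-fold to 16.8-fold of Cdh5Cre against floxed. Genes of other tissues moved in the same comparison. Of 8 heart muscle genes 7 were lower by 2-fold or more in Sm22Cre than in Cdh5Cre, with a median log2 ratio of -1.64, and they summed to 395 FPKM in Sm22Cre, 1326 FPKM in Cdh5Cre and 877 FPKM in floxed. Unlike the platelet transcripts, the heart muscle genes were lowest in Sm22Cre by their sum, with a median of -1.19 against floxed. Of 8 adventitial fibroblast genes all had log2 ratios below 0 in Sm22Cre against Cdh5Cre and 2 were lower by 2-fold or more, with a median of -0.51, and their sums were 2885 FPKM in Sm22Cre, 4259 FPKM in Cdh5Cre and 2949 FPKM in floxed. The part of these tissues in the platelet values was not tested.

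Across all genes, ratios that involve Cdh5Cre followed transcript length and GC content, which together accounted for 45.6% of the variance of the log2 ratios between Cdh5Cre and floxed. The share was 47.1% between Sm22Cre and Cdh5Cre, and 3.84% between Sm22Cre and floxed. The longest coding transcripts of the 10 genes ran from 588 bases for Pf4 to 5900 bases for Gp6. With that trend removed, Cdh5Cre against floxed had a median of 1.82 for the 10 genes, and 7 of them were higher by 2-fold or more, against 0.479% of the 12317 genes with a length. Pf4 (0.54), Treml1 (0.89) and Gp1bb (0.96) no longer reached 2-fold, and Gp6, with the longest transcript, did at 1.22. Ppbp kept 3.77. In Sm22Cre against floxed the median was 0.78 and the same genes, Ppbp, Clec1b and Tubb1, reached 2-fold, against 0.106% of all genes. In Sm22Cre against Cdh5Cre the median was -1.01 and 5 of 10 genes were lower by 2-fold or more, against 0.593%.

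**Figure D2:**
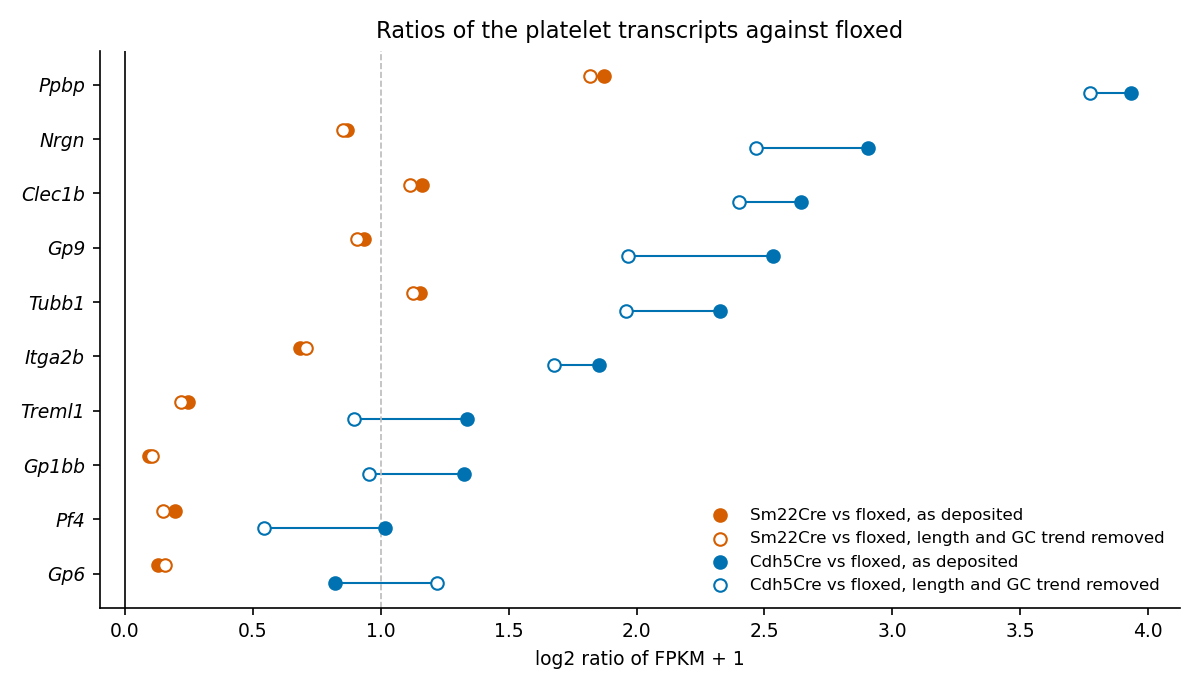
Log2 ratio of FPKM + 1 against floxed for each platelet transcript, in Sm22Cre (orange) and Cdh5Cre (blue); filled points are the values as deposited, open points the values corrected for transcript length and GC content, and the dashed line marks 2-fold. Open points lie close to filled ones in Sm22Cre, while in Cdh5Cre that of Pf4 moves to 0.54 and that of Gp6 to 1.22.

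The make-up of the set differed between groups. Ppbp made up 30.9% of the summed FPKM of the 10 genes in Sm22Cre, 40.0% in Cdh5Cre and 14.7% in floxed. Pf4 made up 26.5% in Sm22Cre, 14.5% in Cdh5Cre and 43.4% in floxed, the largest share of any member there. Nrgn was at 20.9% in Sm22Cre, 26.9% in Cdh5Cre and 20.9% in floxed. Pf4, Itga2b, Gp1bb and Gp6 had their highest shares in floxed, with Itga2b at 7.33% in Sm22Cre, 5.34% in Cdh5Cre and 7.98% in floxed. In all, 34.4 percentage points of the sum were placed on different members in Cdh5Cre than in floxed, 20.0 points in Sm22Cre than in floxed, and 15.6 points in Sm22Cre than in Cdh5Cre.

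**Figure D3:**
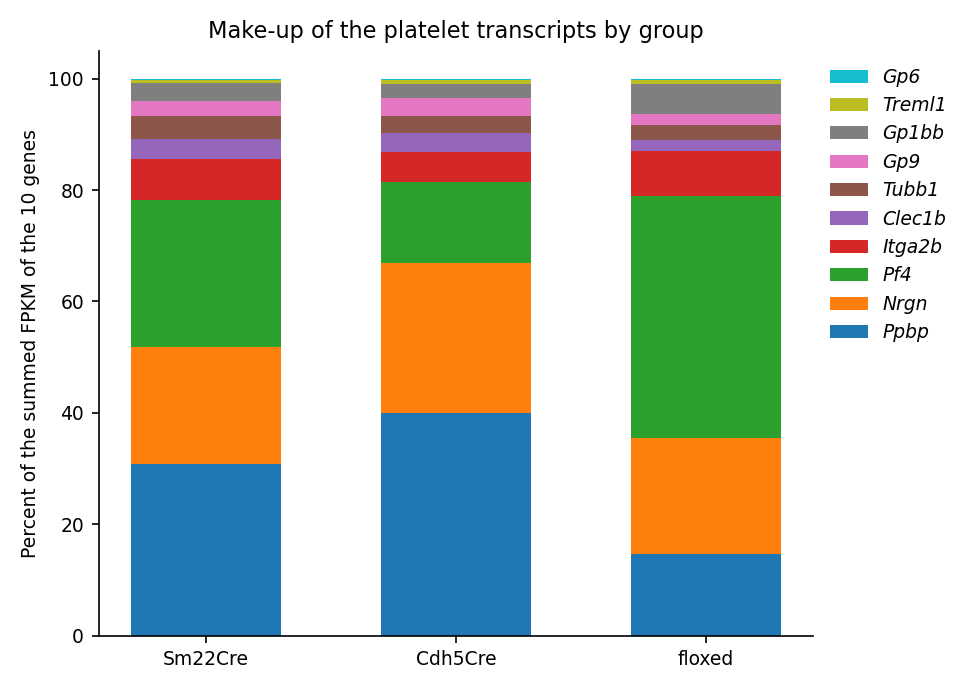
Percent of the summed FPKM of the 10 platelet transcripts taken by each gene, in Sm22Cre, Cdh5Cre and floxed; each bar adds to the whole. Ppbp takes 30.9%, 40.0% and 14.7% in that order, and Pf4 26.5%, 14.5% and 43.4%.

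Another 64 genes known from platelets and megakaryocytes were listed in 5 groups, of which 63 were found and 57 analysed. Of these 57, 10 were higher by 2-fold or more in Cdh5Cre than in floxed and 0 lower, against 1.19% and 0.703% of all genes, with a median log2 ratio of 0.37. In Sm22Cre against floxed 0 of the 57 were higher or lower by that much, against 0.302% and 0.33%, and the median was 0.08. In Sm22Cre against Cdh5Cre 4 were lower and 0 higher, against 1.23% and 0.401%, with a median of -0.35. With the length and GC trend removed, 8 of the 57 were higher by 2-fold or more in Cdh5Cre than in floxed, against 0.479% of all genes.

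Among 12 analysed receptors and adhesion genes, 2 were higher by 2-fold or more in Cdh5Cre than in floxed, against 1.19% of all genes. They were Gp5 (log2 ratio 1.35) and Cd226, an adhesion receptor gene, at 1.02 FPKM in Sm22Cre, 3.06 FPKM in Cdh5Cre and 0.56 FPKM in floxed. The highest of the list, the tetraspanin gene Cd9, stood at 416 FPKM in Sm22Cre, 472 FPKM in Cdh5Cre and 394 FPKM in floxed.

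Among 16 analysed signalling and eicosanoid genes, 5 were higher by 2-fold or more in Cdh5Cre than in floxed, against 1.19% of all genes. Rgs18, a regulator of G protein signalling found in platelets, led with a log2 ratio of 1.78, and stood at 2.30 FPKM in Sm22Cre, 6.40 FPKM in Cdh5Cre and 1.15 FPKM in floxed. The integrin activator gene Fermt3 (1.41), the protein kinase C substrate gene Plek (1.38), the G protein subunit gene Gng11 (1.31) and the lipoxygenase gene Alox12 (1.01) followed. With the length and GC trend removed 3 of the 16 reached 2-fold, against 0.479% of all genes. They were Rgs18, Fermt3 and Plek, while Gng11 had 0.88 and Alox12 0.95. Plek had status FAIL. Tln1, the highest of the list and used by most cells to link integrins to actin, stood at 135 FPKM in Sm22Cre, 107 FPKM in Cdh5Cre and 140 FPKM in floxed.

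Among 15 analysed granule and coagulation genes, Srgn and F5 were higher by 2-fold or more in Cdh5Cre than in floxed, against 1.19% of all genes. Srgn, the granule proteoglycan gene, had a log2 ratio of 1.13 and stood at 40.7 FPKM in Sm22Cre, 69.8 FPKM in Cdh5Cre and 31.3 FPKM in floxed. F5, which encodes coagulation factor V, had a log2 ratio of 1.03. Both had status FAIL in all 3 comparisons, and F5 shares its listed locus with other genes. Vwf, stored by platelets and by endothelium, stood at 67.7 FPKM in Sm22Cre, 111 FPKM in Cdh5Cre and 62.2 FPKM in floxed. Clu, the highest of this list, had a log2 ratio of 0.21 in Cdh5Cre against floxed. Of 8 cytoskeletal genes, Sh3bgrl2 alone was higher by 2-fold or more in Cdh5Cre than in floxed (1.03), against 1.19% of all genes. Myl9, the highest of that list, had a log2 ratio of 0.36.

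None of the 6 analysed megakaryocyte transcription factor genes was higher by 2-fold or more in Cdh5Cre or in Sm22Cre than in floxed. Of all genes 1.19% were in Cdh5Cre and 0.302% in Sm22Cre, and 0 of so few genes lies near those shares. Nfe2, which drives platelet formation, came nearest in Cdh5Cre at a log2 ratio of 0.79, with 0.98 FPKM in Sm22Cre, 1.75 FPKM in Cdh5Cre and 0.59 FPKM in floxed. Gata1, the main regulator of megakaryocytes and red cell precursors, was below 1 FPKM throughout, at 0.14 FPKM in Sm22Cre, 0.30 FPKM in Cdh5Cre and 0.10 FPKM in floxed. Meis1, the highest of the list and expressed in many tissues, had a log2 ratio of -0.05 in Cdh5Cre against floxed.

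The summed levels of erythroid, neutrophil, lymphoid, macrophage and endothelial genes stood in the same order of groups as the platelet transcripts. Their part in the platelet values was not tested. The macrophage sum was 1.13-fold and the endothelial sum 1.52-fold higher in Cdh5Cre than in floxed. With the length and GC trend removed, the macrophage list had a median log2 ratio of -0.24 there and the endothelial list 0.41. The sums of the smooth muscle, adventitial fibroblast, heart muscle, and neuronal and Schwann cell lists stood in other orders. The 13 erythroid genes found summed to 9096 FPKM in Sm22Cre, 25547 FPKM in Cdh5Cre and 4079 FPKM in floxed, or 6.26-fold higher in Cdh5Cre and 2.23-fold higher in Sm22Cre than in floxed. For the summed platelet transcripts these folds were 6.18 in Cdh5Cre and 1.89 in Sm22Cre. Of the 9 analysed erythroid genes, 7 were higher by 2-fold or more in Cdh5Cre than in floxed, against 1.19% of all genes. In Sm22Cre against floxed 5 of the 9 were, against 0.302%. The others did not reach 2-fold, and 2 had log2 ratios below 0 in Cdh5Cre against floxed and 1 in Sm22Cre against floxed. With the length and GC trend removed, 6 of the 9 reached 2-fold upward in Cdh5Cre against floxed, against 0.479% of all genes. In Sm22Cre against floxed 5 did, against 0.106%. Among the globin genes, the alpha chain genes Hba-a2 and Hba-a1 had log2 ratios of 2.78 and 2.71 in Cdh5Cre against floxed, and the beta chain genes Hbb-bs and Hbb-bt had 2.57 and 2.54. Near-identical globin copies share reads, and of these 4 genes Hbb-bt alone had status OK. Alas2, the heme synthesis enzyme of red cells, had 2.32 there and 1.04 in Sm22Cre against floxed.

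The 13 neutrophil genes summed to 15.0 FPKM in Sm22Cre, 48.0 FPKM in Cdh5Cre and 5.68 FPKM in floxed. S100a8 and S100a9, which encode calprotectin, were the highest of the list in both Cre groups, while Lcn2, at 1.06 FPKM in Sm22Cre, 2.88 FPKM in Cdh5Cre and 1.69 FPKM in floxed, was the highest in floxed. S100a9 stood at 5.49 FPKM in Sm22Cre, 19.9 FPKM in Cdh5Cre and 1.43 FPKM in floxed. Retnlg and Csf3r were also higher by 2-fold or more in Cdh5Cre than in floxed, with log2 ratios of 1.39 and 1.11. In Cdh5Cre against floxed 4 of the 5 analysed neutrophil genes reached 2-fold upward, against 1.19% of all genes. With the length and GC trend removed 3 of the 5 did, against 0.479%. In Sm22Cre against floxed 2 of the 5 analysed neutrophil genes reached 2-fold upward, against 0.302%, and 1, Lcn2, was below 0. Of the neutrophil genes 3 were listed at 0 in floxed, and they were the defining markers Ly6g, Elane and Mpo. In that order they stood at 0.13, 0.08 and 0.01 FPKM in Sm22Cre and at 0.32, 0.15 and 0.05 FPKM in Cdh5Cre. All 3 were thus near 0 in every group and below the filter of 1 FPKM. The 10 lymphoid genes summed to 17.6 FPKM in Sm22Cre, 28.4 FPKM in Cdh5Cre and 14.2 FPKM in floxed, led by Coro1a. None of the 5 analysed reached 2-fold against floxed, while 1.19% of all genes did so upward in Cdh5Cre and 0.302% in Sm22Cre. The 10 endothelial genes summed to 342 FPKM in Sm22Cre, 458 FPKM in Cdh5Cre and 302 FPKM in floxed, with 4 higher by 2-fold or more in Cdh5Cre than in floxed, against 1.19% of all genes, and 0 in Sm22Cre. With the length and GC trend removed 1 of the 10 endothelial genes, Emcn, reached 2-fold upward in Cdh5Cre against floxed, against 0.479% of all genes.

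**Figure D4:**
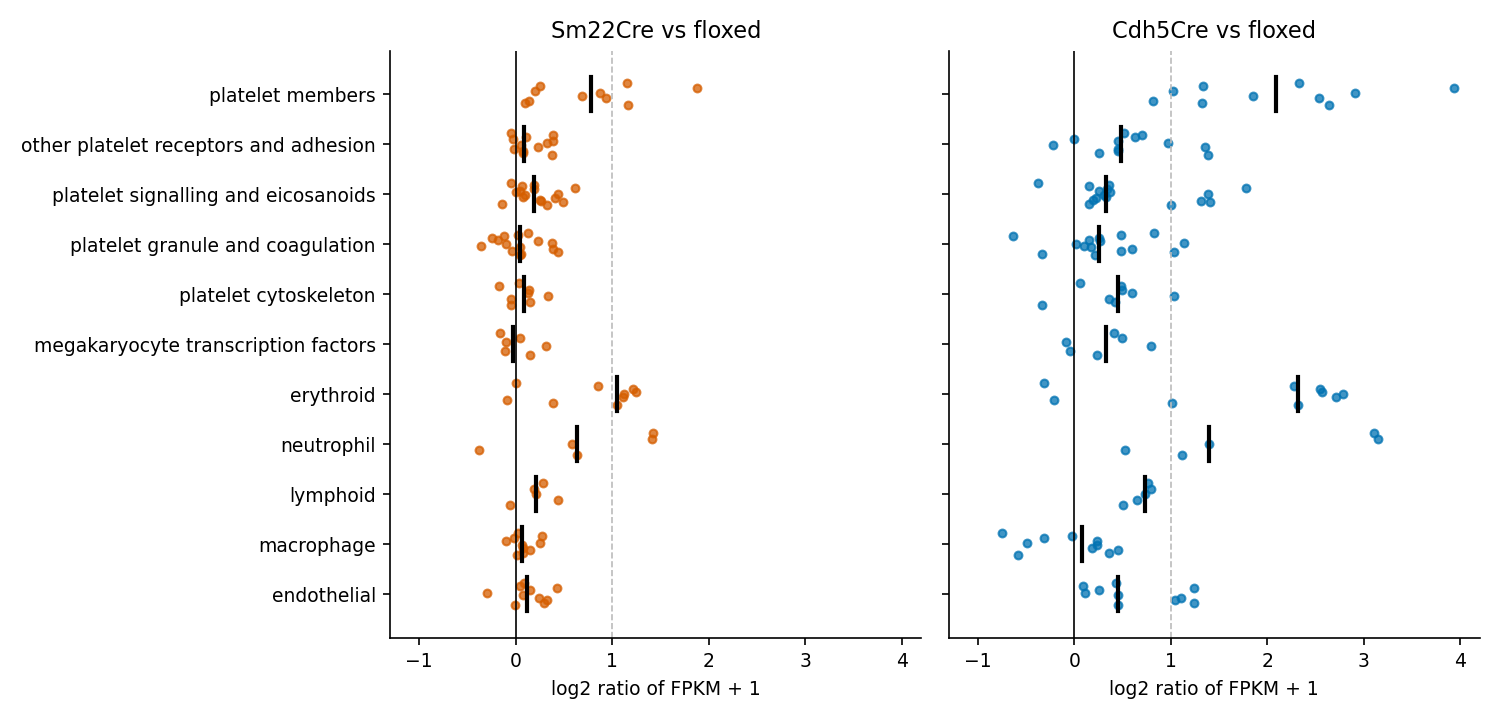
Log2 ratio of FPKM + 1 of the analysed genes of each list, in Sm22Cre against floxed (left) and in Cdh5Cre against floxed (right); each point is a gene, the black bar the median of its list and the dashed line 2-fold. The medians of the platelet members are 0.78 and 2.09, those of the erythroid list 1.04 and 2.32, and those of the macrophage list 0.07 and 0.08.

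The genes whose pair of log2 ratios, Cdh5Cre against floxed and Sm22Cre against floxed, lay nearest to the median pair of the 10 transcripts were sought among all other analysed genes with a symbol and no 0. Likeness was the Euclidean distance, over 3 group values, so it rests on very few numbers. Among the nearest was Mpig6b (distance 0.34), an inhibitory receptor gene of megakaryocytes and platelets that was in none of the lists, at 1.07 FPKM in Sm22Cre, 3.90 FPKM in Cdh5Cre and 0.40 FPKM in floxed. Rgs18 (0.35) and Alas2 (0.35) were nearby genes from the lists. Further genes among the nearest 10 were Snora68, Apol11b, Foxs1, Hspb1, Hist1h4m and Hsp25-ps1, at distances of 0.23 to 0.53. Of these, Hspb1, a small heat shock protein gene, was by far the highest, at 265 FPKM in Sm22Cre, 715 FPKM in Cdh5Cre and 199 FPKM in floxed, and Hsp25-ps1 is a pseudogene close to it in sequence, so the 2 may share reads. In Cdh5Cre against floxed, Alas2 and Hspb1 had status FAIL.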

How the data were processed

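Per the labels' protocols, poly-A RNA from 1 µg of aortic RNA with an integrity number above 8 was made into stranded libraries of fragments of about 300 bp and read as paired ends of 75 bases. Cufflinks 1.3.0, SAMtools 0.1.7, TopHat2 2.0.8 and Bowtie2 2.1.0 are named with build mm9, per the submitters' processing notes; their roles, the annotation and the use of strand in counting are not given in the sources used here. The deposited table gives FPKM, made by the authors, as 1 combined value per group in each pair of groups, with a status. Sm22Cre and floxed values were read from their own pair and Cdh5Cre values from its pair with Sm22Cre; no platelet transcript differed between pairs.

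Genes with 1 FPKM or more in any group and no status HIDATA were analysed (14225). Ratios used log2(FPKM + 1), a scale that shrinks the differences of low genes. Combined values allow none of the tests planned for single libraries, so a rule of 2-fold took their place. Symbols came from GENCODE M21, for 32638 of 37668 genes, and 163 of 165 list entries were found. Listed starts were taken to count from 0, since end minus start equalled the gene length for 12013 genes alone at their locus, against 302 with 1 added; 1 was added to each start. The length and GC trend was a fit of cubic polynomials with their product, tested on simulated data. Python 3.11.15, numpy 2.4.6, pandas 2.3.3 and matplotlib 3.10.9 were used.

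The 10 transcripts and the gene lists were chosen with earlier results of these data known. Genes named from the lists are those past 2-fold in a comparison against floxed, up to 6 per list, and the highest of each list; Agtr1a and genes among the 10 nearest in pattern were named by rule; some list genes are not reported here. Gp1ba, Itgb3, Fcer1g, Syk, Plcg2, Vwf, Nfe2, Gata1, Npy, Snap25, Syt1, Camk2a, Lcn2, Myh11, Acta2, Sept5 and the other locus partners, Ly6g, Elane and Mpo were chosen after their values were seen. Alternatives were other pseudocounts, filters, scalings, the trend removed, status OK alone and, added after seeing the data, genes alone at their locus.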

Additional observations from a re-analysis of the deposited data

How the results depend on the processing

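The median log2 ratio of the 10 transcripts kept its sign under every alternative run, at 1.82 to 2.78 in Cdh5Cre against floxed, 0.78 to 0.90 in Sm22Cre against floxed and -1.73 to -1.01 in Sm22Cre against Cdh5Cre. The highest of the first range came from a pseudocount of 0.01, which by construction spreads the ratios of low genes. The count of genes lower by 2-fold or more in Sm22Cre than in Cdh5Cre was 5 with the length and GC trend removed, against 8. Of 250 alternative values for single transcripts, 12 moved by more than 1.5-fold, all with a smaller pseudocount, and 0 changed sign. The filters, the status rule and the locus rule only drop genes, so the values they kept were the same by construction. Another pseudocount cannot change the sign of a ratio. Only the scalings and the trend removal could have changed a sign, so the count of 250 is no measure of robustness. A filter at 5 FPKM removed Gp6 and Treml1. For the neutrophil list, the median of 5 log2 ratios was 1.39, 0.63 and -0.91 in the same order of comparisons, below the sizes from its summed FPKM. For the macrophage list in Sm22Cre against Cdh5Cre the median was 0.092, while the sum was lower in Sm22Cre; the cause was not tested. Leaving out single libraries could not be run on combined values. No paired analysis was possible because the table holds no value per library and the groups share no replicate numbers. The unknown depth leaves the precision of low values such as those of Gp6 unknown.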
